A study of Macaca mulatta with 45 samples.

Results

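The nuclear-encoded subunits of the mitochondrial respiratory chain and ATP synthase were examined across 3 brain regions of rhesus macaques from 3 radiation groups. The members were the genes whose rhesus Ensembl symbol named a subunit of complexes I to V by its family stem (NDUFA, NDUFB, NDUFC, NDUFS or NDUFV with a number, SDHA to SDHD, UQCR, CYC1, COX4 to COX8, ATP5), and 1 symbol that fitted the pattern was left out by the rule. This gave 44 of the 30246 genes in the count table: 19 for complex I, 4 for complex II, 5 for complex III, 6 for complex IV and 10 for complex V. NDUFA4, which was long counted with complex I, was placed with complex IV. The 44 are not a complete list of subunits, because 14477 genes of the table carried no symbol.

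The respiratory chain sits in the inner mitochondrial membrane. Complexes I and II feed electrons from NADH and succinate to ubiquinone, complex III passes them to cytochrome c, and complex IV reduces oxygen. Complexes I, III and IV pump protons, and complex V, the ATP synthase, uses the gradient to make ATP. Most subunits are encoded in the nucleus and a small core is encoded in mitochondrial DNA. Neurons are known for a high demand on oxidative phosphorylation at synapses, whereas mature oligodendrocytes, the myelin-forming cells of white matter, are known to lean more on glycolysis. No mitochondrially encoded gene could be matched by symbol in the table, so those subunits are not analysed here.

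The study used 15 animals, 5 in each group, and sampled 3 regions of each brain: Brodmann area 46 of the dorsolateral prefrontal cortex, the hippocampus, and deep white matter (centrum semiovale). This gave 45 libraries of bulk total RNA in 9 groups of 5. Controls were thorax-irradiated animals, given 10 Gy to the chest with an estimated 0.1 Gy or less reaching the brain, so they were not unirradiated. Fractionated whole brain irradiation (fWBI) delivered 40 Gy in 8 sessions of 5 Gy, and those brains were taken 12 months later. Total body irradiation (TBI) was a single exposure between 6.75 and 8.05 Gy, and those brains were taken after an interval of 6 to 9 years. Dose, fractionation, field and time therefore differed together between fWBI and TBI and cannot be told apart. The labels used here give neither age nor sex. Each library is bulk tissue, in which fewer cells of a type and less RNA per cell cannot be told apart.

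Libraries held 6625435 to 12541507 counts, of which the members took 0.322% to 0.812%. Levels are given as CPM, the count of a gene relative to the total of its library, with totals scaled by the TMM method over all 45 libraries. They were not divided by transcript length, so levels are compared for 1 gene across libraries and not between genes. NDUFS6, a complex I subunit, had no count in any library, and SDHC, a membrane anchor of complex II, was too low to be tested in the fits of white matter alone. That left 42 members tested among white matter libraries and 43 elsewhere. The 13 pan-neuronal markers summed to 12376 to 15169 CPM in prefrontal cortex and 739 to 11269 CPM in white matter. The 7 measured oligodendrocyte and myelin markers summed to 21339.7 to 53815 CPM in white matter against 551 to 2911 CPM in prefrontal cortex. Of the white matter libraries, those of control replicates 1 and 3 stood apart, with pan-neuronal means of 8.46 and 7.40 log2 CPM against 4.54 to 5.46 in the other 13. Control white matter replicate 1 lay within the control hippocampus range of 8.28 to 8.49, so not every library matched its region in neuronal markers. In control prefrontal cortex, replicate 1 stood apart in the members themselves, with a member mean of 5.91 log2 CPM against 6.46 to 6.70 in the other 4. Cytosolic ribosomal protein genes, looked at after this was seen, were also low in that library, at a mean of 6.05 log2 CPM against 6.56 to 6.81. Counts of called members in the comparisons that use these libraries are given with and without them.

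The clearest pattern was regional. Most members were lower in white matter than in prefrontal cortex or hippocampus in every radiation group, and prefrontal cortex and hippocampus lay close together. The mean over the 43 measured members was 6.43 ± 0.31 log2 CPM in control prefrontal cortex, 6.48 ± 0.15 in control hippocampus and 6.09 ± 0.18 in control white matter (SD, n = 5 each). The same means were 6.47 ± 0.24, 6.51 ± 0.14 and 5.83 ± 0.16 in fWBI animals and 6.47 ± 0.19, 6.55 ± 0.04 and 6.04 ± 0.14 in TBI animals. Within the fWBI group and within the TBI group no white matter library reached the lowest library of the other regions, whereas in controls the prefrontal cortex library of replicate 1 lay among the white matter libraries.

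**Figure D1:**
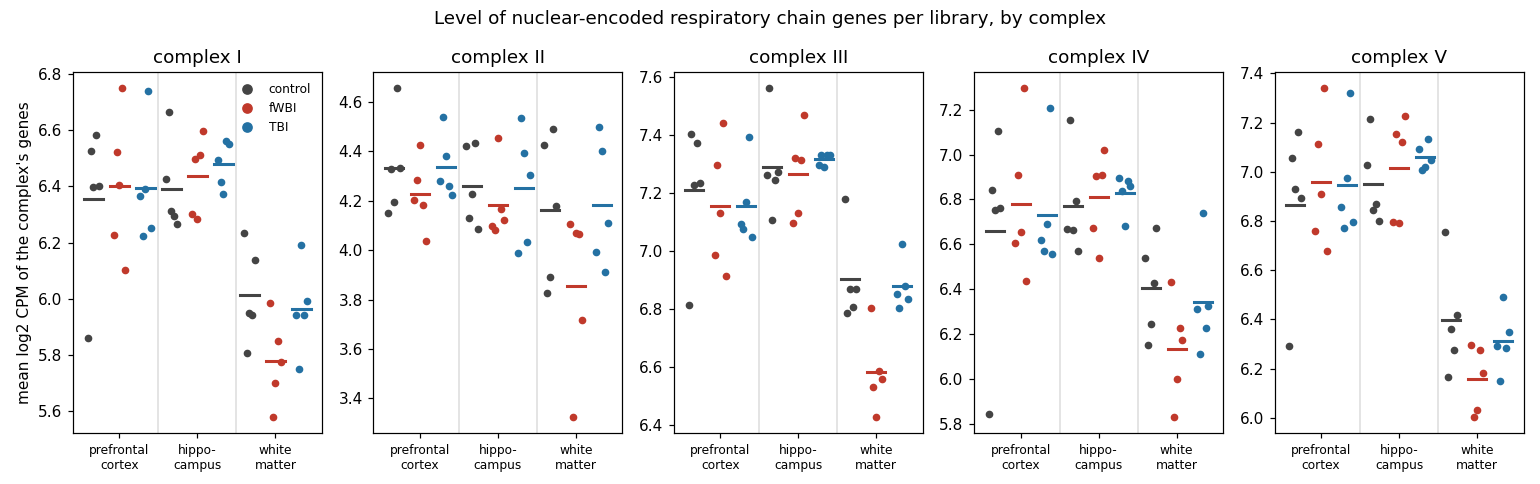
Mean log2 CPM of the measured genes of each complex (y axis) in every library, grouped by region and coloured by radiation group; each point is 1 library and each bar the mean of 5. The white matter means lie lowest in each panel, some single libraries overlap between regions, and the low control point in prefrontal cortex is replicate 1.

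Differences between regions were tested with edgeR's quasi-likelihood method with the animal as a block and Benjamini-Hochberg adjustment over all tested genes, and a gene was called at an adjusted p of at most 0.05. In control animals, 17 of 43 members were lower and 2 higher in white matter relative to prefrontal cortex, with a median log2 fold change of -0.39. The same comparison gave 36 lower and 2 higher with a median of -0.73 in fWBI animals, and 28 lower and 3 higher with a median of -0.50 in TBI animals. White matter and cortex differ in most genes, so the background was high: 60.9% of all tested genes were called in controls (31.4% lower and 29.5% higher), 72.9% in fWBI animals (37.3% lower and 35.6% higher) and 75.2% in TBI animals (38% lower and 37.2% higher). Calls among all tested genes were thus split almost evenly between the directions, with medians of -0.01, -0.02 and 0.00, whereas those among the members were mostly lower. The same 17 members were lower in all 3 groups. Without the 3 control libraries that stood apart, the control count became 28 lower and 3 higher with a median of -0.55 (66.5% of all tested genes called), and without the 2 white matter libraries alone it was 20 lower and 3 higher (62.6%). The region differences of single genes below use all libraries unless stated. A call missing in controls alone therefore does not show that the radiation groups differ. All 13 pan-neuronal markers were also lower in white matter in each group, with medians of -2.47, -3.97 and -3.40 in control, fWBI and TBI animals, and none had 0 counts throughout a group. The part of neuronal content in the members' differences was not tested.

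**Figure D2:**
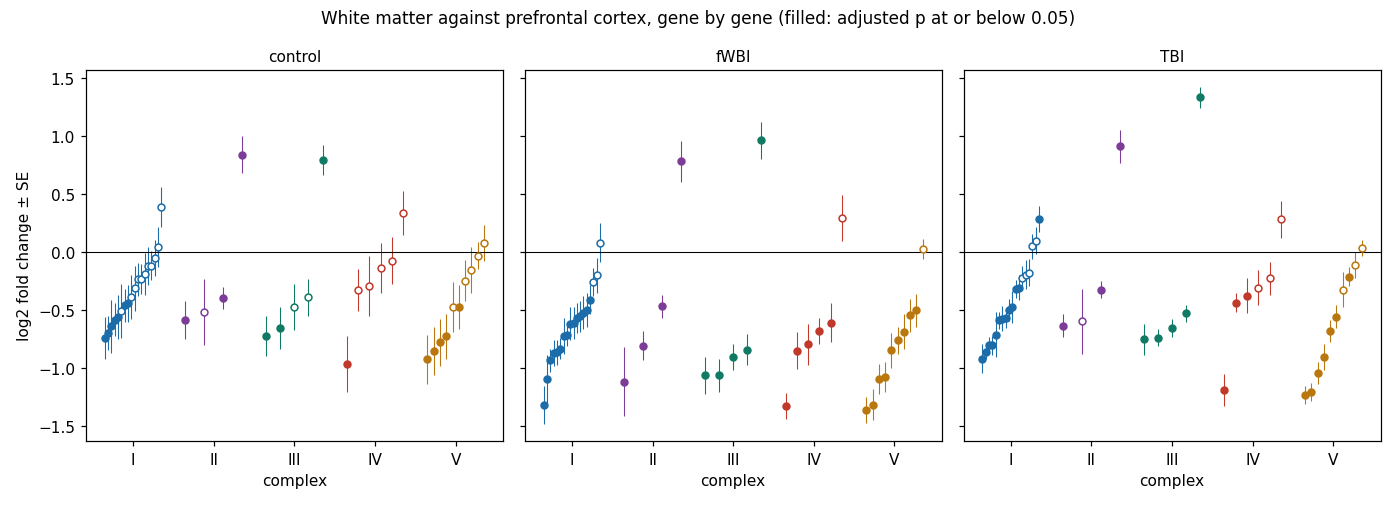
Log2 fold change of each tested member between white matter and prefrontal cortex (y axis, with SE bars) by complex, in control, fWBI and TBI animals; filled points passed the adjusted p threshold. Most points lie below 0 in every panel, and the points near or above 0.75 belong to SDHD in complex II and UQCRH in complex III.

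In complex I, 7 of 18 tested members were lower in white matter than in prefrontal cortex in controls, 15 in fWBI and 12 in TBI animals, and 1 was higher, in TBI animals. Of all tested genes 31.4%, 37.3% and 38% were called lower in control, fWBI and TBI animals, so the control count lay near that share. NDUFV1, the core subunit that binds the flavin and takes electrons from NADH, stood at 86.3, 118, 99.9, 121 and 112 CPM in control prefrontal cortex and at 82.2, 53.4, 67.5, 56.5 and 66.4 CPM in control white matter (replicates 1 to 5). Every white matter value was below every cortical value. Its log2 fold change was -0.70 ± 0.15 (SE) in controls (adjusted p = 0.00189, edgeR), -0.93 ± 0.10 in fWBI animals and -0.80 ± 0.068 in TBI animals. NDUFS1, the largest iron-sulfur core subunit, changed by -0.58 ± 0.14, -0.83 ± 0.093 and -0.86 ± 0.062 in the same order, with no overlap between the regions in any group. The share of all tested genes without overlap between regions is not given here. Lack of overlap between regions therefore does not set a gene apart, here or below. The accessory subunit NDUFB5 showed the largest fall of the complex in fWBI animals: it stood at 189.6, 263, 208, 363 and 164 CPM in their prefrontal cortex and 116, 72.3, 78.8, 112 and 89.7 CPM in their white matter. Its log2 fold change was -1.32 ± 0.16 in fWBI animals, -0.64 ± 0.23 in controls and -0.92 ± 0.13 in TBI animals.

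Not all complex I genes followed. NDUFS7, a core subunit that carries the iron-sulfur cluster next to ubiquinone, stood at 71.5, 74.1, 82.3, 119 and 77.5 CPM in TBI prefrontal cortex and at 96.3, 88.4, 124, 95.1 and 105 CPM in TBI white matter. It was higher in white matter in 4 of the 5 TBI animals and the groups overlapped. Its log2 fold change was 0.29 ± 0.11 in TBI animals (adjusted p = 0.0312, edgeR), 0.39 ± 0.17 in controls (adjusted p = 0.0677) and 0.08 ± 0.17 in fWBI animals (adjusted p = 0.68). The accessory subunits NDUFB9 and NDUFA11 showed no call between white matter and cortex in controls or TBI animals, with log2 fold changes between -0.05 and 0.10, while NDUFB9 was lower in fWBI white matter at -0.41 ± 0.13. Against hippocampus, NDUFA11 was called lower in white matter in fWBI and TBI animals. NDUFV3, an accessory subunit of the NADH-binding module, missed the threshold in all 3 groups at -0.23, -0.26 and -0.18.

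Complex II, succinate dehydrogenase, divided by subunit. SDHB, the iron-sulfur subunit, stood at 129, 105, 139, 178 and 119 CPM in TBI prefrontal cortex and at 84.2, 78.7, 98.3, 81.1 and 82 CPM in TBI white matter, with no overlap. Its log2 fold change was -0.59 ± 0.17 in controls, -0.81 ± 0.12 in fWBI and -0.63 ± 0.10 in TBI animals, and all 3 were called. SDHA, the flavoprotein subunit that oxidises succinate, changed less, by -0.40 ± 0.10, -0.47 ± 0.10 and -0.33 ± 0.075, and was called in all 3 groups. SDHC stood at 0.308 to 2.05 CPM over all 45 libraries. It was called lower in fWBI animals at -1.12 ± 0.30, and stood at -0.52 ± 0.28 in controls and -0.60 ± 0.28 in TBI animals without a call.

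SDHD, the small membrane anchor of complex II, went the other way. It stood at 7.1, 5.91, 4.37, 16.1 and 9.11 CPM in control prefrontal cortex, 9.74, 6.34, 5.08, 12.5 and 7.45 CPM in control hippocampus and 14.2, 8.67, 7.57, 25 and 19.4 CPM in control white matter (replicates 1 to 5). White matter was the highest region in each of the 5 control animals, yet the groups overlapped because the animals differed so much. The log2 fold change of white matter over prefrontal cortex was 0.84 ± 0.16 in controls, 0.78 ± 0.18 in fWBI and 0.92 ± 0.14 in TBI animals, and over hippocampus 0.81 ± 0.16, 0.57 ± 0.17 and 0.91 ± 0.14; all 6 were called.

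An animal with high SDHD was high in all of its regions. TBI replicate 2 stood at 14.6, 15.3 and 30.1 CPM in prefrontal cortex, hippocampus and white matter, and fWBI replicate 3 at 11.2, 13.2 and 21.0 CPM. TBI replicate 5, by contrast, stood at 5.33, 4.92 and 8.39 CPM in the same regions. Once group means were removed, the SD between animals of SDHD was 0.591 log2 units and the SD within animals 0.246, a ratio of 2.4. The ratio was 1.41 for NDUFV3, the next member, and had a median of 0.663 over the 12288 genes with a mean of at least 50 counts, of which 0.358% reached the ratio of SDHD. SDHD is known for processed pseudogenes, and how the authors' counting treated reads that fit several copies is not given in the sources used here, so its levels are uncertain.

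Complex III also divided by subunit. CYC1, which carries the haem that passes electrons to cytochrome c, stood at 162, 229, 198, 261 and 150.4 CPM in fWBI prefrontal cortex and at 108, 85.3, 78.2, 94.3 and 113 CPM in fWBI white matter, with no overlap. It changed by -0.66 ± 0.18, -1.07 ± 0.16 and -0.65 ± 0.079 in control, fWBI and TBI animals. UQCRC1, a core scaffold subunit, changed by -0.72 ± 0.17, -0.91 ± 0.11 and -0.74 ± 0.072, and both were called in each group. UQCRC2, the other core subunit, and UQCRB, which lies near the ubiquinone site, were called lower in fWBI and TBI animals and missed the threshold in controls at adjusted p of 0.0512 and 0.055 (edgeR).

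UQCRH, the hinge protein that helps cytochrome c1 meet cytochrome c, was higher outside the cortex. In control animals it stood at 37.6, 39.7, 34.6, 33.5 and 33.8 CPM in prefrontal cortex, 39.6, 58.5, 42.6, 56.1 and 55.1 CPM in hippocampus and 53.8, 86.2, 55.6, 66.9 and 49.9 CPM in white matter. The lowest hippocampal value lay just under the highest cortical value, and all white matter values lay above the cortical range. The log2 fold change of white matter over prefrontal cortex was 0.80 ± 0.13 in controls, 0.96 ± 0.16 in fWBI and 1.33 ± 0.093 in TBI animals, with no overlap in any group. UQCRH is also known for near-identical copies, so reads could be split among them.

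In complex IV, COX5A, a structural subunit on the matrix side, fell most. It stood at 34.2, 38, 43.3, 63.7 and 40.7 CPM in TBI prefrontal cortex and at 20.7, 16.2, 22.6, 17.3 and 17.4 CPM in TBI white matter, and changed by -1.19 ± 0.14 there, -1.33 ± 0.11 in fWBI animals and -0.97 ± 0.24 in controls. COX4I1, the common isoform of the regulatory subunit 4, and COX6C were called lower in fWBI and TBI animals and not in controls, where their fold changes were -0.33 ± 0.18 and -0.29 ± 0.26. Control prefrontal cortex replicate 1 was low for COX4I1, at 158 CPM against 302 to 384 in the other libraries of its group. NDUFA4 was called lower in fWBI animals alone, at -0.80 ± 0.18 against -0.07 ± 0.20 in controls and -0.23 ± 0.14 in TBI animals. COX7A1, the isoform of subunit 7A known from heart and muscle, was not lower: its log2 fold changes were 0.34 ± 0.19, 0.29 ± 0.20 and 0.28 ± 0.16, with no call.

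The catalytic subunits of ATP synthase gave the largest falls of complex V. ATP5F1B, the beta subunit, stood at 344, 343, 374, 429.6 and 348 CPM in TBI prefrontal cortex and at 154, 179, 153, 155 and 149 CPM in TBI white matter. In control white matter it stood at 292, 138, 208, 146 and 145 CPM, where the high values of replicates 1 and 3 were those of the libraries with raised neuronal markers. The log2 fold change of ATP5F1B was -0.93 ± 0.21, -1.36 ± 0.11 and -1.21 ± 0.077 in control, fWBI and TBI animals. That of the alpha subunit ATP5F1A was -0.85 ± 0.21, -1.32 ± 0.13 and -1.24 ± 0.076, and both genes were called in each group. ATP5IF1, the inhibitor that blocks ATP hydrolysis, changed less: it was called lower in fWBI (-0.55 ± 0.14) and TBI animals (-0.21 ± 0.083) and stood at -0.15 ± 0.20 in controls, without a call.

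The 3 genes for subunit c of the rotor ring, which encode the same mature protein behind different import sequences, differed. ATP5MC3 stood at 48.5, 71.5, 69.3, 94.8 and 62.5 CPM in control prefrontal cortex and at 62, 34.9, 37.6, 35.5 and 36.6 CPM in control white matter, and changed by -0.73 ± 0.19, -1.08 ± 0.13 and -1.04 ± 0.10 in the 3 groups, called in each. ATP5MC1 changed by -0.48 ± 0.22, -0.76 ± 0.12 and -0.56 ± 0.10, called in fWBI and TBI animals. ATP5MC2 stood at 42.8, 86.3, 67.6, 83.4 and 77.1 CPM in control prefrontal cortex and at 70.6, 67.8, 73, 72.3 and 82.3 CPM in control white matter. Its log2 fold changes were 0.08 ± 0.15, 0.03 ± 0.088 and 0.03 ± 0.069, with 95% intervals of -0.26 to 0.41, -0.16 to 0.22 and -0.12 to 0.18. ATP5MC2 was the 1 measured member of 43 that was called in none of the 9 comparisons between regions.

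White matter against hippocampus gave a like picture, with the white matter libraries shared between both comparisons. In control, fWBI and TBI animals 21, 35 and 33 of 43 members were lower and 1, 1 and 5 higher, with medians of -0.46, -0.78 and -0.62, where 55.9% (27.8% lower, 28.1% higher), 70% (35.1% lower, 34.9% higher) and 75.1% (37.2% lower, 37.9% higher) of all tested genes were called. Without the 3 libraries that stood apart, the control counts were 25 lower and 2 higher (62.5% of all tested genes called), and without the 2 of white matter alone 24 lower and 2 higher (59.8%). The 5 higher in TBI animals were SDHD, UQCRH (0.58 ± 0.091), COX7A1 (0.45 ± 0.16), NDUFS7 (0.31 ± 0.11) and NDUFB9 (0.26 ± 0.11). NDUFB9 stood at 161, 143, 129, 160.1 and 175 CPM in TBI hippocampus and 178, 162, 212, 167 and 196 CPM in TBI white matter, higher in white matter in each of the 5 animals. In fWBI animals its fold change in the same comparison was -0.22 ± 0.13, without a call.

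Hippocampus and prefrontal cortex differed in few members. UQCRH was the single call in control animals (0.48 ± 0.13, adjusted p = 0.0283) and in fWBI animals (0.65 ± 0.16, adjusted p = 0.00972), by edgeR, where 15% and 23.7% of all tested genes were called. In TBI animals 4 members were higher in hippocampus and 1 lower, where 36.9% of all tested genes were called. Those higher were UQCRH (0.75 ± 0.094), NDUFA11 (0.42 ± 0.12), ATP5MC1 (0.26 ± 0.10) and ATP5F1C, the gamma subunit of the rotor stalk (0.25 ± 0.092). The lower one was SDHA, at 95.9, 109, 106, 101 and 108 CPM in prefrontal cortex and 73.2, 91.5, 86.5, 82.6 and 93.6 CPM in hippocampus, without overlap (-0.29 ± 0.074). Without TBI replicate 4, whose prefrontal cortex library was the highest of its group in the member mean, 12 members were called (35.6% of all tested genes), and without replicate 5 there were 2 (28.7%). In controls, without the 3 libraries that stood apart, UQCRH was higher and NDUFB9 and ATP5PD lower (21.9% of all tested genes called).

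Irradiation was then compared within each region, with all 3 groups in 1 edgeR fit per region. The comparisons of fWBI and of TBI with control share the control libraries and are not independent of each other. In white matter, fWBI animals had lower values than controls for 40 of 42 tested members, with a median log2 fold change of -0.26 against -0.03 for all tested genes. Only NDUFA4 passed the threshold, while 16.7% of all tested genes did, and 18 members had an unadjusted p under 0.05, as did 29.4% of all tested genes. The medians by complex ran from -0.18 in complex II to -0.35 in complex III. Of the 42 members, 25 had a 95% interval within a 1.5-fold change either way. The member mean ranged from 5.62 to 6.04 log2 CPM in fWBI, 5.87 to 6.34 in control and 5.90 to 6.27 in TBI white matter, so the groups overlapped. NDUFA6, an accessory subunit of complex I, was the 1 member of 42 whose fWBI and control libraries did not overlap, against 10.3% of all tested genes; its fold change was -0.32 ± 0.13 (adjusted p = 0.0961, edgeR).

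NDUFA4 stood at 422, 288, 319, 405 and 444 CPM in control white matter, 315, 165, 196, 262 and 237 CPM in fWBI white matter and 310.4, 269.7, 473, 280.0 and 313 CPM in TBI white matter. All 5 fWBI values were below the control mean, and the highest, replicate 1, lay above the lowest control value. The log2 fold change from control was -0.68 ± 0.19 (adjusted p = 0.0259, edgeR). From TBI to fWBI it was -0.48 ± 0.19 (adjusted p = 0.169, edgeR), without a call. The next largest differences from control in fWBI white matter were -0.47 ± 0.20 for COX5A, -0.45 ± 0.45 for SDHD, -0.45 ± 0.17 for ATP5F1A and -0.42 ± 0.18 for ATP5F1B, with adjusted p of 0.115, 0.568, 0.0775 and 0.124 by edgeR. ATP5MC2 and COX7A1 were the pair with a positive value, at 0.06 ± 0.081 and 0.23 ± 0.23.

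**Figure D3:**
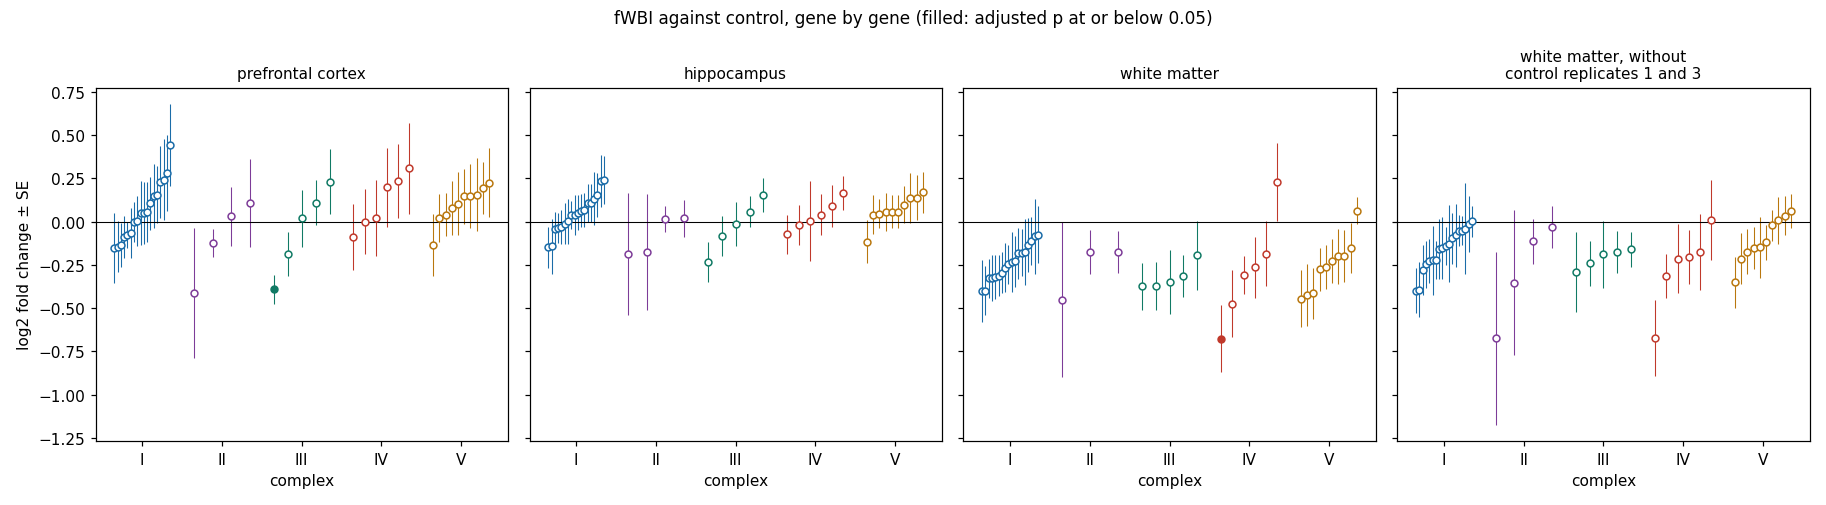
Log2 fold change of each tested member between fWBI and control (y axis, with SE bars) by complex, in 3 regions and, at the right, in white matter without control replicates 1 and 3; filled points passed the adjusted p threshold. In white matter most points lie below 0 (40 of 42), they move towards 0 without the 2 control libraries (38 of 43 below 0), and in hippocampus and prefrontal cortex they lie on both sides of 0.

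Part of this difference went with the 2 control libraries that stood apart. When both were left out, no member was called by edgeR, 5 had an unadjusted p under 0.05 (22.6% of all tested genes), 38 of 43 were lower and the median was -0.16, while 10.8% of all tested genes were called. NDUFA4 kept its size at -0.67 ± 0.22 (adjusted p = 0.0659, edgeR), whereas ATP5F1B changed to -0.02 ± 0.09 and ATP5F1A to -0.15 ± 0.12. With the pan-neuronal level as a covariate, again no member was called by edgeR (12.2% of all tested genes were), 5 had an unadjusted p under 0.05 (23.8% of all tested genes), and the median was -0.17. Over the whole marker lists, 7 of 13 pan-neuronal markers were lower in fWBI than control white matter (median -2.15) and 0 of 13 without the 2 libraries (median 0.20). The pan-neuronal markers summed to 849.5 to 11269 CPM in control, 741 to 1369 in fWBI and 739 to 1358 in TBI white matter.

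**Figure D4:**
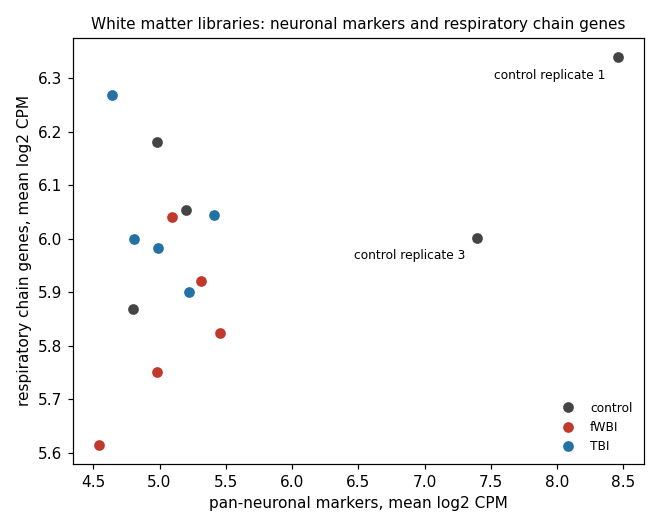
Mean log2 CPM of the 43 measured members (y axis) against that of the 13 pan-neuronal markers (x axis) in the 15 white matter libraries, coloured by radiation group; each point is 1 library. Control replicates 1 and 3 lie apart at 8.46 and 7.40 on the x axis, and among the other 13 libraries the 5 fWBI points reach from 5.62 to 6.04 on the y axis.

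Other cell markers moved with fWBI in white matter too. Of the 9 measured markers of oligodendrocyte precursors all were lower, with a median of -2.30, and their sum was 417 to 572 CPM in fWBI against 831 to 1716 in control white matter. Of the 8 markers of myeloid activation 7 were higher, with a median of 3.38, and their sum was 2858 to 6664 against 786 to 2788 CPM. None of the 7 oligodendrocyte and myelin markers was called, with a sum of 21339.7 to 39147 against 25378 to 51972 CPM. Of 8 astrocyte markers 2 were higher and 2 lower, of 6 endothelial markers 2 higher and 1 lower, of 7 pericyte and smooth muscle markers 2 lower, and of 4 homeostatic microglia markers 1 lower. In this comparison 16.7% of all tested genes were called in either direction. Without control replicates 1 and 3 (10.8% of all tested genes called), the counts of precursor, myeloid activation and oligodendrocyte markers were 8 of 9 lower, 7 of 8 higher and 4 of 7 lower. Their part in the members' values was not tested.

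The contrast of fWBI with TBI white matter does not compare against the control libraries. They still share in the gene filter, the scaling, the estimate of spread and the slope of the covariate used below. Here 40 of 42 members were lower in fWBI, with a median of -0.19 against -0.01 for all tested genes, and none was called by edgeR, where 7.33% of all tested genes were. At an unadjusted p under 0.05 there were 8, where 19.7% of all tested genes had one, and DESeq2 called 2 members and 8.29% of all genes it tested. The fWBI and TBI libraries did not overlap for 3 of 42 members, SDHA and ATP5F1B among them, against 8.51% of all tested genes. SDHA missed the threshold narrowly, at -0.43 ± 0.13 (adjusted p = 0.053, edgeR). SDHA stood at 70.8, 50.3, 56.4, 70.7 and 59.4 CPM in fWBI and 79.3, 100.2, 74.9, 82.1 and 78.8 CPM in TBI white matter, without overlap. When control replicates 1 and 3 were left out of the fit, 2 members were called lower, and SDHA was one of them at -0.42 ± 0.11 (adjusted p = 0.0282, edgeR; 10.4% of all tested genes called). With the pan-neuronal covariate 3 members were called, and UQCRC2 was added at -0.32 ± 0.10 (11.5% of all tested genes called). In this contrast 8 of 9 precursor markers were lower and 7 of 8 myeloid activation markers higher in fWBI, and 0 of 13 pan-neuronal markers was called.

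In prefrontal cortex SDHA stood at 84.4, 76.5, 81.5, 85.1 and 92.8 CPM in fWBI and 95.9, 109, 106, 101 and 108 CPM in TBI animals, without a call. SDHA was the 1 member of 43 whose groups did not overlap, against 1.35% of all tested genes. Its log2 fold change of -0.31 ± 0.08 had an adjusted p of 0.23 by edgeR. In hippocampus the same difference was -0.13 ± 0.10, with an interval of -0.35 to 0.09. No member was called between fWBI and TBI in either region, where 0.29% and 0.339% of all tested genes were called; 1 member had an unadjusted p under 0.05 in prefrontal cortex and 0 in hippocampus (4.84% and 7.18% of all tested genes), and DESeq2 called 1 and 0 (0.536% and 0.752%).

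TBI white matter differed little from control. No member was called by edgeR or DESeq2, where 0.0722% and 4.83% of all tested genes were called. No member had an unadjusted p under 0.05, against 18% of all tested genes. The median was -0.06 with 29 of 42 members negative, and 36 of 42 members had a 95% interval within a 1.5-fold change. The widest interval was that of SDHD, from -0.84 to 1.07. Without control replicates 1 and 3 the median became 0.03, with 28 of 43 members positive, 0 called by edgeR (0% of all tested genes) and 1 at an unadjusted p under 0.05 (6.93%).

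In hippocampus no member was called by edgeR or DESeq2 for fWBI or TBI against control, with medians of 0.04 and 0.08. Of all tested genes edgeR called 0.723% and 0%, and DESeq2 called 1.51% and 0.34%. Of 43 members, 41 had an interval within a 1.5-fold change for fWBI and 38 for TBI. At an unadjusted p under 0.05 there were 0 members for fWBI and 2 for TBI, against 11.1% and 10.6% of all tested genes. The 2 were NDUFB8 at 0.33 ± 0.14 and COX6C at 0.23 ± 0.10, both accessory subunits.

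In prefrontal cortex the one member called was UQCRH. It stood at 37.6, 39.7, 34.6, 33.5 and 33.8 CPM in control, 25.8, 27.9, 26.7, 25.6 and 29.1 CPM in fWBI and 27.8, 25.6, 25.7, 26.8 and 24.4 CPM in TBI animals. Every irradiated value was below every control value, and the fWBI and TBI values overlapped. The log2 fold change was -0.39 ± 0.083 for fWBI (adjusted p = 0.0294, edgeR; 1.15% of all tested genes called) and -0.45 ± 0.083 for TBI (adjusted p = 0.068, edgeR), where no gene was called (0%), 2 members had an unadjusted p under 0.05 (11.7% of all tested genes) and DESeq2 called 1 member (1.51%). Groups that did not overlap made up 3.41% and 2.28% of all tested genes in these comparisons, and UQCRH was the 1 member in each. In hippocampus UQCRH stood at 39.6 to 58.5 CPM in control, 36.4 to 45.4 CPM in fWBI and 39.7 to 52.6 CPM in TBI animals, with log2 fold changes of -0.23 ± 0.12 and -0.19 ± 0.12 and no call. In white matter the fold changes were -0.19 ± 0.20 and 0.07 ± 0.20.

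**Figure D5:**
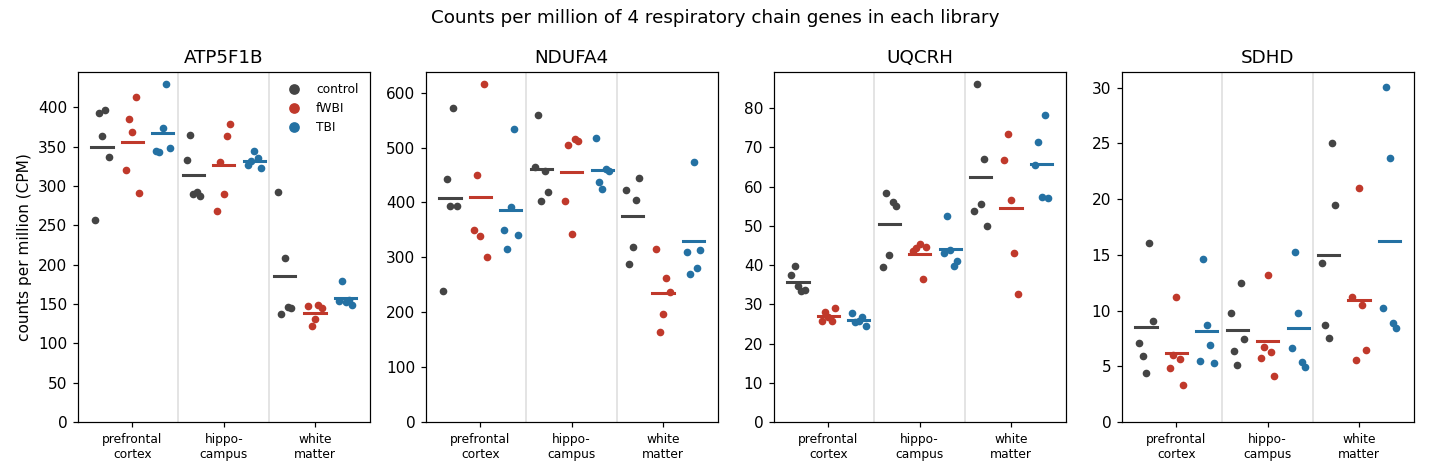
CPM (y axis, from 0) of ATP5F1B, NDUFA4, UQCRH and SDHD in every library, grouped by region and coloured by radiation group; each point is 1 library and each bar the mean of 5. The ATP5F1B means are lowest in white matter and the lowest NDUFA4 mean is that of fWBI white matter, with some single libraries overlapping between regions; the 10 irradiated cortical UQCRH values lie below the 5 control values, and SDHD spreads widely between animals.

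The call of UQCRH in prefrontal cortex rested on a small margin and was lost when any of 7 of the 10 libraries compared was left out. Without control replicate 1 the adjusted p of UQCRH for fWBI was 0.0501 at -0.37 ± 0.086, and no member was called by edgeR (1.02% of all tested genes were), with 2 at an unadjusted p under 0.05 (11.4%). The other members lay on both sides of 0, with medians of 0.05 for fWBI and 0.07 for TBI, and without control replicate 1 both medians were -0.06, with 0.032% of all tested genes called for TBI and 0 members. Of 43 members, 31 had an interval within a 1.5-fold change for fWBI and 34 for TBI. The oligodendrocyte and myelin markers summed to 551 to 2911 CPM in control, 695 to 1517 in fWBI and 725 to 1673 in TBI prefrontal cortex; with their level as a covariate UQCRH had an adjusted p of 0.0802 for fWBI.

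Whether the irradiation effect differed between regions was tested as an interaction over all 45 libraries with the animal as a block. For fWBI in white matter against prefrontal cortex, 40 of 43 members had a negative interaction, with a median of -0.33 against -0.03 for all tested genes. No member was called by edgeR or DESeq2, where 9.96% and 12% of all tested genes were. At an unadjusted p under 0.05 there were 7, against 23.9% of all tested genes, with NDUFA4 at -0.69 ± 0.27 (adjusted p = 0.107) and NDUFB5 at -0.65 ± 0.27 (adjusted p = 0.134), by edgeR. With control white matter replicates 1 and 3 left out, 33 of 43 were negative at a median of -0.15, 0 were called (6.21% of all tested genes) and 1 had an unadjusted p under 0.05 (18.4%). Without control animal 1 alone the median was -0.10. The interactions of fWBI in hippocampus, TBI in white matter and TBI in hippocampus called no member by edgeR or DESeq2, with medians of 0.00, -0.09 and 0.03, and 0, 1 and 0 members at an unadjusted p under 0.05 (1.8%, 12.9% and 2.61% of all tested genes). Of all tested genes 0%, 0.0301% and 0% were called there by edgeR, and 0.0074%, 0.448% and 0% by DESeq2. Without control white matter replicates 1 and 3 these medians became -0.03, 0.04 and 0.01 with no call, so the TBI white matter interaction changed from 35 of 43 members negative to 29 of 43 positive. Without control animal 1, the medians of fWBI in hippocampus and TBI in white matter were 0.12 and 0.09.

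Genes around the chain were counted from lists of related functions. In fWBI against control white matter none of 12 complex I assembly factors and none of 23 assembly factors of complexes II to V was called by edgeR (medians -0.23 and -0.11, with 1 and 3 at an unadjusted p under 0.05). Of all tested genes 16.7% were called there and 29.4% had an unadjusted p under 0.05. Of 14 tricarboxylic acid cycle enzymes, 1 was lower and SUCLG2, a subunit of the GTP-forming succinyl-CoA ligase, was higher (0.59 ± 0.16). Of 10 electron carrier genes, COQ9 of ubiquinone synthesis was lower (-0.30 ± 0.086), and of 14 glycolysis enzymes, ALDOC, the aldolase of astrocytes, was lower (-0.77 ± 0.18). Without control replicates 1 and 3 the calls of both cycle enzymes and of COQ9 were lost, with adjusted p of 0.117 for SUCLG2 (0.42 ± 0.16) and 0.111 for COQ9 (-0.26 ± 0.10) by edgeR, while ALDOC kept its call (-0.64 ± 0.19) and LDHA, which makes lactate, gained one (0.62 ± 0.16). Without those replicates 10.8% of all tested genes were called. Against TBI white matter ALDOC was lower (-1.005 ± 0.18), LDHA was higher (0.61 ± 0.16), and ETFDH, which passes electrons from fatty acid oxidation to ubiquinone, was lower (-0.42 ± 0.12). In that contrast 7.33% of all tested genes were called.

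Of 11 regulators of mitochondrial biogenesis, 2 were lower in fWBI than control white matter and none was higher, where 16.7% of all tested genes were called in either direction. PPARGC1A encodes the coactivator PGC-1alpha, known as an inducer of respiratory chain genes. It stood at 50.4, 36.8, 55.5, 35.1 and 36.3 CPM in control, 16.7, 9.04, 8.62, 15.4 and 6.52 CPM in fWBI and 32.7, 27.2, 34.2, 20.2 and 26.3 CPM in TBI white matter, and every fWBI value was below every value of the other groups. Libraries did not overlap for 10.3% of all tested genes between fWBI and control, and for 8.51% between fWBI and TBI. The means of PPARGC1A were 42.8, 11.3 and 28.1 CPM in control, fWBI and TBI white matter, so TBI lay below control too. Its log2 fold change was -1.93 ± 0.25 from control (adjusted p = 7.00e-05) and -1.32 ± 0.24 from TBI (adjusted p = 0.00289), by edgeR. Without control replicates 1 and 3 the first was -1.66 ± 0.25 (adjusted p = 6.70e-04, edgeR). In hippocampus and prefrontal cortex PPARGC1A differed by 0.16 ± 0.11 and 0.16 ± 0.14 without a call, and the interaction of white matter against prefrontal cortex was -2.10 ± 0.25 (adjusted p = 1.15e-06, edgeR).

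ESRRG, the orphan receptor ERR-gamma that acts with PGC-1alpha, stood at 9.54, 4, 13.9, 5.16 and 5.51 CPM in control and 2.53, 2.46, 2.43, 2.98 and 2.12 CPM in fWBI white matter, without overlap. Its log2 fold change was -1.60 ± 0.30 (adjusted p = 0.00168, edgeR), and -0.94 ± 0.22 (adjusted p = 0.012, edgeR) without control replicates 1 and 3, so those 2 libraries moved its size by more than 1.5 times. Its relative ESRRA and the mitochondrial transcription factor TFAM stood at log2 fold changes of -0.13 ± 0.14 and -0.14 ± 0.11, without a call. The member with the largest fall was NDUFA4 at -0.68. The median member stood at -0.26, and at -0.16 without control replicates 1 and 3. A link between these regulators and the members was not tested.

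Between white matter and prefrontal cortex these lists differed. In TBI animals, where 38% of all tested genes were called lower and 37.2% higher, 9 of 12 complex I assembly factors were lower and 1 higher, 9 of 23 assembly factors of the other complexes lower and 5 higher, 11 of 14 tricarboxylic acid cycle enzymes lower and 2 higher, and 11 of 14 glycolysis enzymes lower and 1 higher. Of 10 electron carrier genes 3 were lower and 3 higher, and of 11 biogenesis regulators 5 were lower and 2 higher. The median log2 fold changes in control, fWBI and TBI animals were 0.05, -0.09 and -0.06 for the electron carriers and -0.19, -0.32 and -0.17 for the assembly factors of complexes II to V, against -0.53, -0.75 and -0.70 for the tricarboxylic acid cycle enzymes. The largest changes included NDUFAF4 of complex I assembly (-1.49 ± 0.14), COA6 of complex IV copper delivery (-1.26 ± 0.12), the citrate cycle enzyme IDH3A (-1.31 ± 0.084) and the neuronal enolase ENO2 (-3.02 ± 0.11). Higher in white matter were, among others, the copper chaperone COX17 (0.81 ± 0.12), COA4 (1.28 ± 0.14), SUCLG2 (1.15 ± 0.11) and the hexokinase HK2 (3.37 ± 0.15).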

How the data were processed

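Raw read counts per Ensembl gene were deposited by the authors for 45 libraries of ribosomal RNA-depleted total RNA. FastQC, STAR, featureCounts and DESeq2 are named, without versions, per the submitters' processing notes; the sources used here give no genome build, annotation, strand setting or treatment of multiply mapping reads. Values of genes with near-identical copies (SDHD and UQCRH among them) and of overlapping or antisense genes are therefore uncertain. Symbols came from a table of rhesus Ensembl identifiers that named 15769 of 30246 genes. Total counts per library were 6625435 to 12541507, and no pair of libraries of a group agreed within sampling noise (smallest chi-square per gene 6.94).

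Counts were scaled by TMM and filtered with filterByExpr, and differences were tested across all genes with edgeR 4.0.16 (R 4.3.3, quasi-likelihood with robust estimation, which was chosen after the counts were seen to match an earlier processing of these data), with Benjamini-Hochberg adjustment over all tested genes and a threshold of 0.05. Irradiation was tested in 1 fit per region, regions in 1 fit per radiation group with the animal as a block, and interactions over all 45 libraries with the animal as a block. The animal is named in the labels, and deviations of libraries of 1 animal from their group means correlated above 0.1 in 41 of 45 pairs (median 0.315). Set means are means of log2 CPM with a prior count of 2. The scripts were tested on simulated data with known changes. Alternatives used DESeq2 1.42.0, other filters, scalings and libraries, covariates, and each library left out in turn.

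The members and lists were chosen with earlier results of these data known. In each comparison the named members were, within each complex, up to 3 of the largest rises and falls among those past the threshold with all animals on one side, or the 5 smallest p where fewer than 5 passed, plus core subunits and tissue isoforms as values. Other members named, among them NDUFA11, NDUFB9, NDUFV3, SDHC and ATP5IF1, were chosen after their values were seen, as were the ribosomal protein set and the alternatives without robust estimation, without control prefrontal cortex replicate 1 in detail, and without the 3 control libraries together. Replicates are separate animals. Results of some genes are not reported here.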

Additional observations from a re-analysis of the deposited data

Results flagged for a closer look

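In 225 groups of 5 libraries (19 genes and 6 set means in 9 groups), 19 had a highest or lowest library set far from the other 4 by Dixon's criterion at 95%; chance flags about 1 in 20 groups, and the sets and genes overlap, so the values below are not independent.

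In control prefrontal cortex, replicate 1 was low for COX4I1 (158 CPM against 302 to 384 in the other libraries), COX5A (28.4 CPM against 46.7 to 55.5), the complex I mean (5.86 log2 CPM against 6.40 to 6.58) and the complex IV mean (5.84 log2 CPM against 6.76 to 7.10). In control white matter, replicate 1, which also had the highest neuronal markers, was high for ATP5MC3 (62.0 CPM against 34.9 to 37.6), UQCRC1 (185 CPM against 109 to 127) and the complex III mean (7.18 log2 CPM against 6.78 to 6.87). Control hippocampus replicate 2 was high for NDUFV1 (129 CPM against 97.3 to 104).

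In TBI prefrontal cortex, replicate 4 was high for NDUFS7 (119 CPM against 71.5 to 82.3) and the complex IV mean (7.21 log2 CPM against 6.56 to 6.69). In TBI hippocampus, replicate 2 was low for ATP5MC1 (40.5 CPM against 45.0 to 46.6) and replicate 3 was low for the complex IV mean (6.68 log2 CPM against 6.84 to 6.89). In TBI white matter, replicate 2 was high for ATP5F1B (179 CPM against 149 to 155) and low for ATP5MC1 (19.3 CPM against 26.0 to 28.3), and replicate 3 was high for NDUFA4 (473 CPM against 269.7 to 313).

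In fWBI hippocampus, replicate 4 was low for UQCRH (36.4 CPM against 43.7 to 45.4) and replicate 3 was high for the complex II mean (4.45 log2 CPM against 4.08 to 4.16). In fWBI white matter, replicate 3 was low for COX5A (14.2 CPM against 17.4 to 17.8) and NDUFV1 (43.4 CPM against 53.2 to 57.7).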

How the results depend on the processing

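Among members that were called and named by the rule, no recomputed difference reversed, 931 kept their call and 46 lost it. These members were chosen from the same data for large changes, so their kept calls are not separate support. Apart from NDUFA4 in white matter and UQCRH in prefrontal cortex, for fWBI against control, they came from region comparisons. The calls of NDUFA4 and UQCRH were lost in several alternatives given below. Among 12680 recomputed differences of members without a call, 125 gained one and 1007 changed sign. Of the recomputed counts of called members, 297 stayed within 1.5 times the reported count and 51 did not. Counts of 0 that stayed at 0 are among the 297. Of 348 medians, 1 moved by more than the pooled SD between libraries of a group in the mean member level. It was that of the fWBI interaction of white matter (-0.33, and -0.10 without control replicate 1). This bound is wide: in that interaction -0.15, without control white matter replicates 1 and 3, did not count as moved. In 10 of the 22 comparisons 27 medians, all reported between -0.09 and 0.07, changed sign. The causes were not tested.

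Between fWBI and control in white matter, the 1 call became 0 with the pan-neuronal covariate or without control replicates 1 and 3, 2 with the replicate block (13% of all tested genes called) and 8 with all 45 libraries in 1 fit (24.5%), and ranged from 0 to 10 with 1 library left out (0 without control 1, fWBI 2 or fWBI 3; 2 without control 5 or fWBI 5, with 19.5% and 14.9% of all tested genes called; 3 without fWBI 1, with 14%; 10 without control 2, with 19.7%). Between fWBI and TBI in white matter, the count of 0 became 1 with a mean of at least 10 counts or the replicate block, 2 with DESeq2, only the 2 groups, or without control replicates 1 and 3, and 3 with the covariate or all 45 libraries, where 6.29% (block) to 11.5% (covariate) of all tested genes were called, and ranged from 0 to 3 (3 without fWBI 1, with 7.44%). In prefrontal cortex the 1 call of fWBI against control became 0 with no filter, only the 2 groups, the oligodendrocyte covariate, all 45 libraries, or without control replicate 1, and ranged from 0 to 1 (0 without control 1, 2 or 3 or fWBI 1, 2, 3 or 4), where 0.466% to 1.39% of all tested genes were called. DESeq2 called 1 member for TBI against control and 1 for fWBI against TBI there, and the replicate block 1 for TBI against control (0.522% of all tested genes). The fWBI interaction of white matter ranged from 0 to 1 (1 without control 2, fWBI 1 or fWBI 5, with 12.8%, 9.2% and 10.5% of all tested genes called).

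Between hippocampus and prefrontal cortex, counts with 1 animal left out ranged from 2 to 12 in TBI (12 without TBI 4, 2 without TBI 5, 3 without TBI 1 or 2, with 26.7% to 35.6% of all tested genes called), 0 to 1 in control (0 without control 2, 3, 4 or 5, with 8.2% to 10%) and 0 to 1 in fWBI animals (0 without fWBI 3, with 15.2%); the TBI count was 2 with no replicate block (30.3%), and the control count 3 without the 3 libraries that stood apart. White matter against hippocampus in controls ranged from 7 to 28 (7 without control 2, with 45.5% of all tested genes called), and against prefrontal cortex from 13 to 30 (30 without control 1, with 66.3%), with 31 without the 3 libraries (66.5%).

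Pairing by replicate number across treatments has no basis in the labels: same-numbered libraries correlated above 0.1 in 15 of 45 pairs (median 0.0151), and the replicate block in the irradiation fits changed no count other than those given (1, 1 and 2). With no replicate block in the region fits, SDHD in controls lost its calls of white matter against prefrontal cortex and against hippocampus. Depth limits SDHC most, and the number of animals limits the intervals given in the text.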
